A study of Mus musculus with 21 samples.

Results

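The genes described here drive and carry out cell division: cyclins A and B with their kinase Cdk1, the other mitotic kinases, and the proteins of the spindle, the kinetochore, the condensed chromosome and the cleavage furrow. They were chosen by symbol, with earlier results of these data known, so the list is not independent evidence of its direction. Of 54 genes named, 53 were listed in the deposited tables, and the RNA of Ttk was not analysed here. They are 53 of 12791 genes listed in all. Their RNA was measured by RNA sequencing in slices of the uterine horns of C57BL/6J mice, the common inbred strain, all wild type. The groups were 6 libraries of aged uteri, 7 of uteri of 8-week-old mice and 7 of uteri of 5-week-old mice. Aged mice were 60 to 75 weeks old in replicates 1 and 2 and 79 weeks old in replicates 4 to 7. Mice of all ages, the young ones included, had received pregnant mare serum gonadotropin, 5 or 7.5 units, 48 hours before dissection, to bring on an estrus cycle. This hormone makes ovarian follicles grow, so the uteri were those of stimulated animals and not of animals in an unmanipulated cycle. The question set by the design is how the levels of these RNAs differ between uteri of old and of young mice, and between 8 and 5 weeks.

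Cyclins rise and fall through the cell cycle, and cyclin A and B bound to Cdk1 push a cell into mitosis. The kinetochore ties chromosomes to spindle microtubules, and the spindle checkpoint holds back the anaphase-promoting complex, a ubiquitin ligase, until every chromosome is attached. The ligase then marks cyclin B and securin for destruction, sister chromatids part, and the midzone and furrow divide the cell. Most of these genes are read late in the cycle, under the MuvB complex with B-Myb and Foxm1, which acts through a promoter element called CHR, often beside CCAAT boxes. In the rodent uterus, estrogen is known to send the epithelium into waves of division.

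In aged uteri 52 of the 53 genes were lower than in 8-week uteri and 52 were lower than in 5-week uteri, and 0 were higher in either comparison (limma, Benjamini-Hochberg adjusted p under 0.05 over 12791 genes). The gene that did not pass was Pttg1, which encodes securin. The background share of all genes called lower was 8.53% against 8-week and 9.41% against 5-week uteri, and that called higher 8.64% and 12.7%. The median log2 fold change of the 53 genes was -2.61 against 8-week uteri, that is 6.09-fold lower, and -3.10 against 5-week uteri, 8.55-fold lower. Over all genes the medians were 0.05 and 0.09. At least 4-fold lower were 43 of the 53 genes against 8-week uteri, beside 0.860% of all genes, and 46 of the 53 against 5-week uteri, beside 1.02% of all genes. The changes ran from -3.48 (Ube2c) to 0.18 (Pttg1) against 8-week uteri and from -4.13 (Ccnb1) to 0.26 (Pttg1) against 5-week uteri. Fold changes are on the scale of log2(CPM + 1), CPM being counts scaled to a total of 1000000 over the listed genes of a library, which understates the change of genes near or under 1 CPM. The size of the falls depends on that added value: with 5 CPM added in place of 1, the medians were -1.93 (3.82-fold lower) against 8-week and -2.45 (5.47-fold lower) against 5-week uteri, and 23 and 41 of the 53 genes were at least 4-fold lower. With 0.5 CPM added the medians were -2.76 and -3.25. In RNA of whole tissue, fewer dividing cells and less of these RNAs per cell cannot be told apart.

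The libraries fall into an earlier set, replicates 1 and 2 of each age, and a later set, the rest, and the sets differed in depth, with 12204573 to 14448283 reads in the 6 earlier and 19100690 to 30689439 in the 14 later libraries. The set was a term of the fit. Every listed gene had at least 10 reads in every library, and the lowest count of any of the 53 genes was 11 reads, so a gene that fell to near silence in 1 library would not be in the tables. In 15 of 20 value columns the header names a different sample from the file's own, and for 2 of these (5w replicate 3 and 8w replicate 3) the age group differs too. For 2 others (aged replicates 2 and 5) the header names the other set, so attached by file they would exchange sets and the ages given for them. Columns were taken as their headers name them. Attached by file instead, 45 of the 53 genes were lower against 8-week and 51 against 5-week uteri. Without 5w replicate 3 and 8w replicate 3 the counts were 51 and 52. Markers of the uterine wall were listed for 17 of 17 stromal, 18 of 19 smooth muscle and 19 of 20 epithelial genes. No source used here says whether libraries came from separate animals, so p-values measure the spread between these libraries.

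Summed over the 53 genes, RNA of aged uteri came to 330.2 to 1588 CPM, with a mean of 671 ± 477 (SD, n = 6). The 8-week uteri had 1256 to 7281 CPM, with a mean of 3107 ± 2069.7 (n = 7), and the 5-week uteri 1360.4 to 8513 CPM, with a mean of 4355 ± 2447 (n = 7). In the earlier set the sums were 519.8 and 1588 CPM in aged uteri, against 7281 and 4147 CPM in 8-week and 5999 and 8513 CPM in 5-week uteri. In the later set the aged uteri had 448, 783, 359.8 and 330.2 CPM, against 2079.8, 1557, 2659, 1256 and 2768 CPM in 8-week and 2038, 4334, 1360.4, 3260.5 and 4977 CPM in 5-week uteri. Within each set, as the headers name it, every aged library thus lay below every younger one. Across sets 1 aged library, replicate 2 of 60 to 75 weeks by its header, lay above 3 younger libraries, all of the later set. Attached by file, that aged library would itself be of the later set and lie above those 3 within its own set. Values of the later set were the lower ones: 47 of the 53 genes were called lower in it and 1, Pttg1, higher, with a median of -1.46 on the log2 scale, beside 38.3% of all genes called lower and 20.5% higher.

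**Figure D1:**
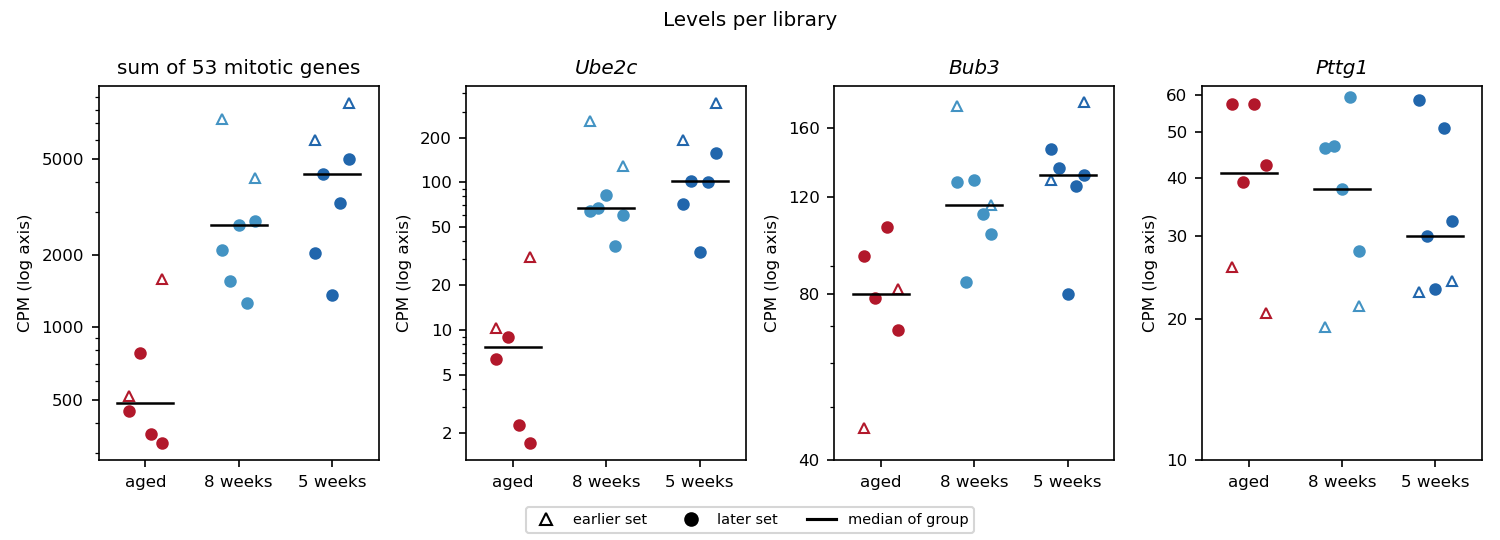
CPM per library (log axis) in aged, 8-week and 5-week uteri, for the sum of the 53 genes and for Ube2c, Bub3 and Pttg1. Open triangles are libraries of the earlier set, filled circles those of the later set, and bars the group medians. Ube2c is lower in every aged library than in every younger one. The sum is so in all aged libraries but replicate 2, which lies above some younger libraries of the later set. Bub3 overlaps between ages, and Pttg1 overlaps too, its lowest value in each group being of the earlier set.

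Gene by gene, 9 of the 53 had all 6 aged libraries below all 14 younger ones, beside 0.571% of all genes: Ube2c, Birc5, Ccnb1, Cdca8, Cenpa, Cenpk, Cenpm, Kif2c and Nuf2. A further 34 had 5 of 6 aged libraries below, and in all 34 the exception was aged replicate 2. The share of all genes that meet this looser rule was not counted, so the 34 have no background beside them. Compared within each set, the aged libraries lay below all 8-week libraries for 44 of the 53 genes (2.71% of all genes) and below all 5-week libraries for 50 (3.82% of all genes). These counts take the sets from the headers, which place aged replicate 2 in the earlier set. The genes that overlapped within a set were Bub3, Pttg1 and Incenp in both comparisons and Mad2l1, Kif20a, Hmmr, Ckap2, Smc2 and Anln against 8-week uteri. In the heat map of all libraries the aged columns other than replicate 2 are low from top to bottom, with 2 pale rows, Bub3 and Pttg1, and the column of replicate 2 is paler.

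**Figure D2:**
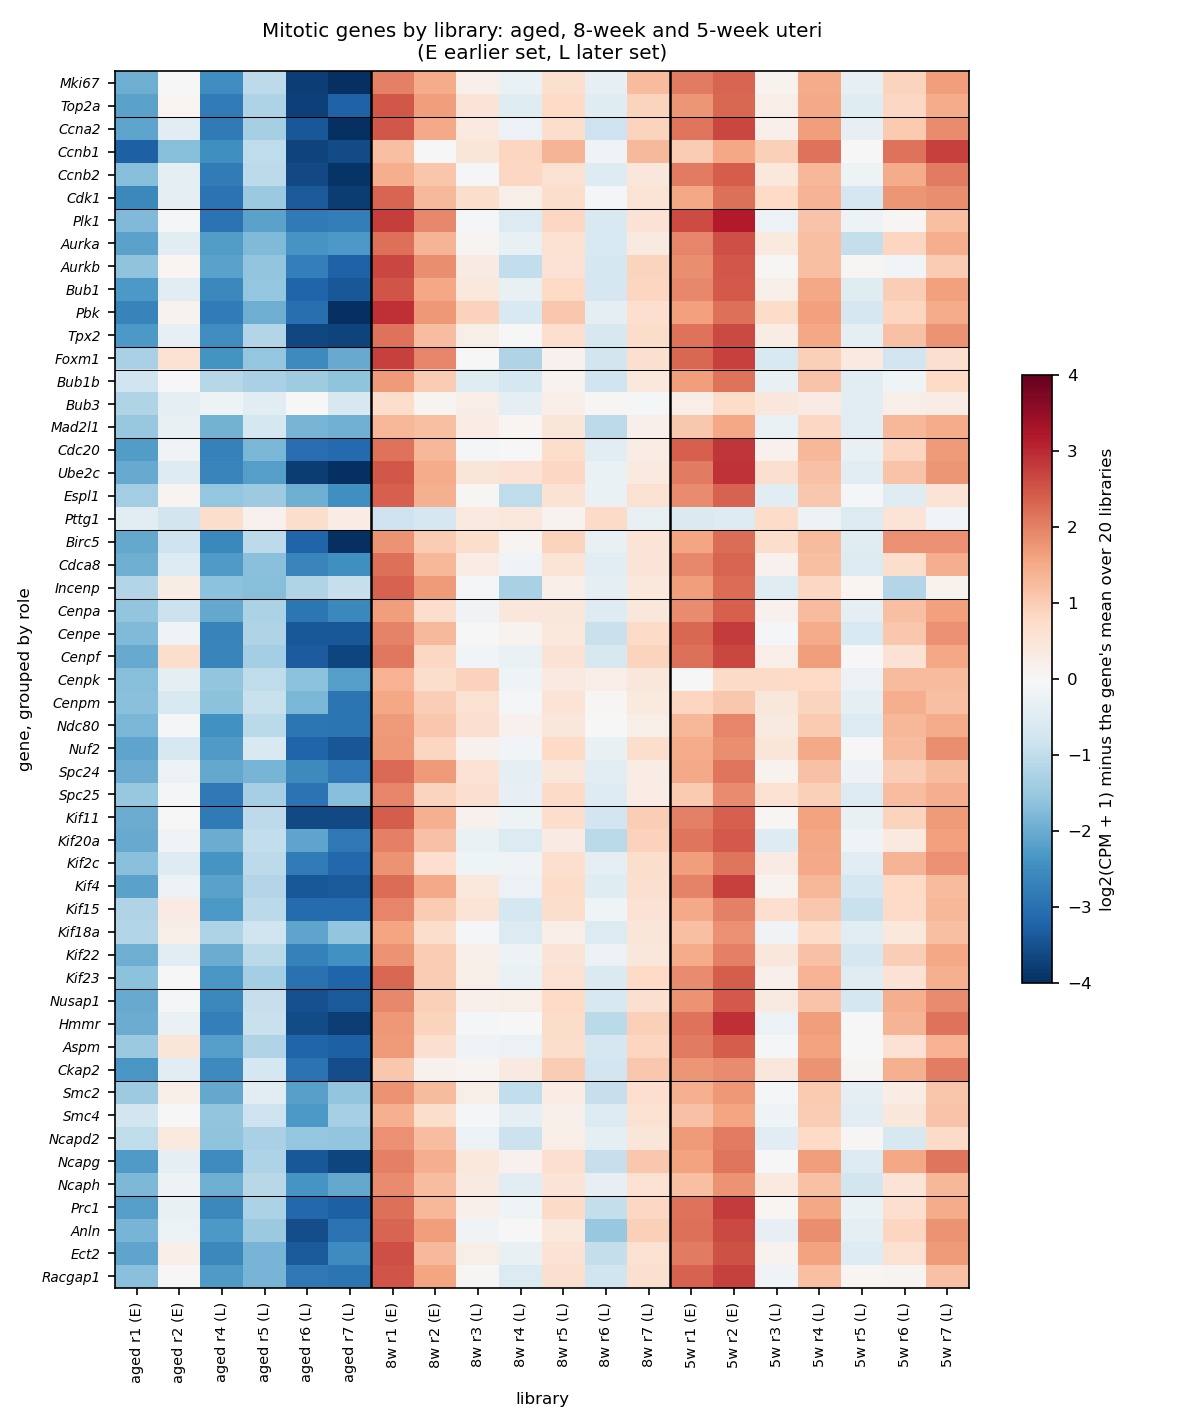
Each row is 1 of the 53 genes, grouped by role, and each column 1 library, with aged uteri at the left, then 8-week and 5-week uteri. Colour is log2(CPM + 1) minus the gene's mean over 20 libraries. Aged replicate 2 is the palest of the aged columns, and 8w replicate 1 and 5w replicate 2, both of the earlier set, are the darkest red.

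The promoters of the named genes can be set beside their changes. RefSeq promoter windows of build GRCm38.p6, 250 bases before to 50 after the start, were found for 45 of the 54 genes, in 50 windows. Among them are windows of Ttk, whose RNA was not analysed here, and of Pttg1, which did not fall. The windows of Ccna2, Aurkb, Pbk, Tpx2, Foxm1, Incenp, Spc24, Kif20a and Smc4 were not analysed here. Of the 50 windows, 36 held the CHR element TTTGAA on either strand (72.0%), beside 17.9% of all 32851 windows, and 38 held it or its variant TTCGAA (76.0%, beside 19.2%). The CCAAT box was in 39 (78.0%, beside 37.4%), both elements together were in 34 (68.0%, beside 7.52%), and the TATA box TATAAA was in 2 (4.00%, beside 13.6%). Over the 12854 windows of genes listed here the shares were 12.1% (TTTGAA), 13.9% (either CHR form), 37.3% (CCAAT), 5.62% (both elements) and 7.13% (TATAAA). Matches of the 2 CHR forms cannot overlap, and a window with several matches counts once. A CHR match lay whole within 50 bases of the start in 32 windows (64.0%), beside 5.31% of all windows. Some genes have more than 1 start and windows that can overlap, and the shares are a description. The 8 windows of Ube2c, Cdk1, Ccnb2, Kif23, Cdc20, Bub3, Ccnb1 and Pttg1 are printed from 120 bases before to 30 bases after the start, 5′ to 3′, because they span the largest and the smallest changes and the members with and without a CHR match. Capitals mark CCAAT (or ATTGG) and TTTGAA (or TTCAAA).
Ube2c (chr2:164769809-164769958, plus strand): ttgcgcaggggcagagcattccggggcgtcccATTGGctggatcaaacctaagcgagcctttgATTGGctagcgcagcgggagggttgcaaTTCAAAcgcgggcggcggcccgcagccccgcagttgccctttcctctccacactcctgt
Cdk1 (chr10:69352883-69353032, minus strand): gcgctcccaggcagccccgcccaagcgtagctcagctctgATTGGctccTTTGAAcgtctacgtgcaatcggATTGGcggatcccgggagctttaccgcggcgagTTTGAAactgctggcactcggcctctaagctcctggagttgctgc
Ccnb2 (chr9:70421525-70421674, minus strand): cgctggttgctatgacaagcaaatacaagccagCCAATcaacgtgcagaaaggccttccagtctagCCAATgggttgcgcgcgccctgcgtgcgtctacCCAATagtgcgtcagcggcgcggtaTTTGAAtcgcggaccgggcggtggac
Kif23 (chr9:61946770-61946919, minus strand): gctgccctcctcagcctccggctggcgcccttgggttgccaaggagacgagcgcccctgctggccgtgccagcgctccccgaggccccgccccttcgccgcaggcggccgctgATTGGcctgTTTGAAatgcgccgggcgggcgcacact
Cdc20 (chr4:118437314-118437463, minus strand): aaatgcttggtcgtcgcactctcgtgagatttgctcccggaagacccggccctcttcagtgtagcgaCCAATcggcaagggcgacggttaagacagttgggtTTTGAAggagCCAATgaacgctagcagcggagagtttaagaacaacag
Bub3 (chr7:131560250-131560399, plus strand): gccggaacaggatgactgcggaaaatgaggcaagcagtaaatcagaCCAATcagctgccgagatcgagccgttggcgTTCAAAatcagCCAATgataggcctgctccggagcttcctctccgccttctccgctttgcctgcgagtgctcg
Ccnb1 (chr13:100786457-100786606, minus strand): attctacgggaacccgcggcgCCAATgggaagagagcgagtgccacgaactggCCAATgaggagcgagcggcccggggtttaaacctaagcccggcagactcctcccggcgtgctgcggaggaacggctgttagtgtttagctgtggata
Pttg1 (chr11:43425952-43426101, minus strand): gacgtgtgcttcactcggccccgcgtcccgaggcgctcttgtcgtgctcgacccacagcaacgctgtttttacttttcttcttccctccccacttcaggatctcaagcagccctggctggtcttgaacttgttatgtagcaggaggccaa
Ube2c, Cdk1, Ccnb2, Kif23 and Cdc20 carry both elements in the stretch printed, and so does Bub3, whose change was the smallest among the genes called. Ccnb1 carries 2 CCAAT boxes and no CHR match in its window and was among the 5 genes with the largest change. Pttg1 has neither, but its RefSeq window ends at 43426231, short of the 5′ end of the gene in GENCODE release M21 at 43426251, so a start farther upstream is not covered. Of the listed genes with a window, 34 with a CHR match had a median log2 fold change of -2.60 in aged against 8-week uteri, and 10 without one had a median of -2.41. With only 150 bases before the start, the share of windows with a CHR match of either form was 38.0%, beside 9.70% of all windows.

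Mki67, the marker of proliferating cells, and Top2a, the topoisomerase that untangles chromosomes, fell in both comparisons. Top2a (chromosome 11, 98992943 to 99024189, minus strand) had 8.63 to 135 CPM (median 22.7) in aged uteri, against 89.3 to 711 CPM (median 222) in 8-week and 90.9 to 625 CPM (median 359) in 5-week uteri. Its log2 fold change was -3.02 ± 0.43 (SE, adjusted p = 0.00021) against 8-week and -3.35 ± 0.43 (SE, adjusted p = 2.99e-05) against 5-week uteri. The aged libraries other than replicate 2, which had 135 CPM, lay below every younger library. Mki67 averaged 26.7 ± 28.9 CPM in aged uteri (SD, n = 6), against 155 ± 96.6 CPM in 8-week and 218 ± 127 CPM in 5-week uteri (n = 7 each), a log2 fold change of -3.0005 and -3.46.

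Cyclins A and B and Cdk1 held the lowest median of any role, -3.23 against 8-week and -3.77 against 5-week uteri, and all 4 passed the test in both comparisons. Ccnb2 (chromosome 9, 70407692 to 70421547, minus strand), one of the mitotic B cyclins, had the highest level per length of exon of all 53 genes, 38.4 CPM per kb over the 20 libraries. It had 1.27 to 25.2 CPM (median 6.88) in aged uteri, against 23.1 to 93.3 CPM (median 52.3) in 8-week and 28.9 to 186 CPM (median 95.9) in 5-week uteri, with a log2 fold change of -2.86 ± 0.42 (SE, adjusted p = 0.000259) against 8-week and -3.68 ± 0.42 (SE, adjusted p = 1.48e-05) against 5-week uteri. Its partner kinase Cdk1 (chromosome 10, 69335146 to 69352938, minus strand) had 2.49 to 36.01 CPM (median 6.23) in aged uteri, against 46.1 to 245 CPM (median 78.03) in 8-week and 29.8 to 224 CPM (median 143) in 5-week uteri. The log2 fold change of Cdk1 was -3.31 ± 0.42 (SE, adjusted p = 0.000137) against 8-week and -3.76 ± 0.42 (SE, adjusted p = 1.42e-05) against 5-week uteri. Ccnb1, the main cyclin of mitotic entry, had 0.736 to 10.1 CPM (median 2.22) in aged uteri, against 19.6 to 57.1 CPM (median 40.1) in 8-week and 21.9 to 147 CPM (median 64.4) in 5-week uteri, so that no aged library reached a younger one. It changed by -3.35 ± 0.46 (SE, adjusted p = 0.000207) against 8-week and -4.13 ± 0.46 (SE, adjusted p = 1.42e-05) against 5-week uteri, the largest fall of the 53 genes relative to 5-week uteri. Ccna2, which acts from S phase to early mitosis, had 1.45 to 30.1 CPM (median 6.88) in aged uteri, against 22.8 to 236 CPM (median 67.7) in 8-week and 32.8 to 266 CPM (median 134) in 5-week uteri. Ccna2 changed by -3.15 ± 0.44 (SE, adjusted p = 0.000207) against 8-week and -3.78 ± 0.44 (SE, adjusted p = 1.5e-05) against 5-week uteri. Aged replicate 2 alone, at 30.1 CPM of Ccna2, lay within the range of the younger libraries. Of the exon length of Ccna2, 12.5% overlaps Exosc9 on the other strand, and the library kit does not keep strand.

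All 6 listed kinases and activators of mitosis fell in both comparisons, with medians of -2.93 against 8-week and -3.40 against 5-week uteri. Pbk, a kinase of dividing cells, had the highest level per length among them, 25.9 CPM per kb. Pbk (chromosome 14, 65805837 to 65817822, plus strand) had 0.589 to 26.6 CPM (median 2.79) in aged uteri, against 15.6 to 190.3 CPM (median 46.5) in 8-week and 14.8 to 115 CPM (median 69.9) in 5-week uteri. Pbk changed by -3.37 ± 0.46 (SE, adjusted p = 0.000197) against 8-week and -3.59 ± 0.46 (SE, adjusted p = 3.2e-05) against 5-week uteri, and the high aged library was again replicate 2. Plk1, the kinase of spindle assembly and mitotic exit, changed by -2.89 against 8-week and -3.30 against 5-week uteri. Aurka, the centrosomal Aurora kinase, and its activator Tpx2 changed by -2.48 and -2.97 against 8-week uteri. Aurkb, the kinase of the chromosomal passenger complex, changed by -2.62, and Bub1, the checkpoint kinase, by -3.06. Foxm1, the transcription factor that activates genes of this class, also fell. It had 1.39 to 20.7 CPM (median 3.17) in aged uteri, against 5.16 to 92.8 CPM (median 14.8) in 8-week and 7.37 to 92.8 CPM (median 20.9) in 5-week uteri, with a log2 fold change of -2.15 ± 0.36 (SE, adjusted p = 0.000704) against 8-week and -2.45 ± 0.36 (SE, adjusted p = 0.000125) against 5-week uteri. Its aged libraries were all under 4.78 CPM except replicate 2 at 20.7 CPM, and with no set term in the fit its adjusted p against 8-week uteri was 0.0728.

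The 3 spindle checkpoint genes fell in both comparisons and had the smallest median change of the roles, -1.29 against 8-week and -1.81 against 5-week uteri. Bub3 (chromosome 7, 131560222 to 131571895, plus strand), a WD-repeat protein that carries Bub1 and Bub1b to kinetochores, had 45.8 to 106 CPM (median 80.04) in aged uteri, against 83.98 to 175 CPM (median 116) in 8-week and 79.9 to 178 CPM (median 131) in 5-week uteri. The aged and younger libraries overlapped, and 3 of 6 aged libraries lay below all younger ones. Bub3 changed by -0.62 ± 0.20 (SE, adjusted p = 0.038) against 8-week and -0.75 ± 0.20 (SE, adjusted p = 0.0119) against 5-week uteri. Against 5-week uteri the call was lost in the later set alone (adjusted p = 0.181) and with columns attached by file (0.0794). The call against 8-week uteri was lost in 12 alternatives, among them the later set alone (-0.35, adjusted p = 0.451) and each fit without aged replicate 1, 2 or 7 or without 8w replicate 1, 2, 3 or 5 (adjusted p = 0.0618 to 0.107). Bub1b, which encodes BubR1, an inhibitor of the anaphase-promoting complex, had 11.5 to 38.2 CPM (median 15.6) in aged uteri, against 21.2 to 125 CPM (median 41.7) in 8-week and 27.5 to 174 CPM (median 65.96) in 5-week uteri. Its log2 fold change was -1.29 ± 0.28 (SE, adjusted p = 0.00388) against 8-week and -1.81 ± 0.28 (SE, adjusted p = 0.000174) against 5-week uteri, with an adjusted p of 0.114 against 8-week uteri when the set was not a term and of 0.145 in the later set alone. Mad2l1, which sequesters Cdc20, averaged 25.8 ± 14.4 CPM in aged uteri, against 88.8 ± 44.7 CPM in 8-week uteri, and changed by -1.77 and, against 5-week uteri, by -2.20.

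Among the genes of anaphase, Ube2c held the largest fall relative to 8-week uteri and Pttg1 did not pass. Ube2c (chromosome 2, 164769898 to 164778822, plus strand), the ubiquitin-conjugating enzyme of the anaphase-promoting complex, had 1.72 to 31.4 CPM (median 7.69) in aged uteri, against 37.05 to 257 CPM (median 67.1) in 8-week and 33.4 to 342 CPM (median 102) in 5-week uteri. Its log2 fold change was -3.48 ± 0.36 (SE, adjusted p = 6.77e-05) against 8-week and -3.95 ± 0.36 (SE, adjusted p = 6.95e-06) against 5-week uteri, and all 6 aged libraries lay below all younger ones. Tnnc2, on the opposite strand, overlaps 22.8% of the exon length of Ube2c. Cdc20, the activator of the complex, changed by -2.83 and -3.54 against 8-week and 5-week uteri. Espl1, the protease separase that opens cohesin, changed by -2.06 and -2.23. Pttg1 (chromosome 11, 43420250 to 43426251, minus strand), the securin that holds separase inactive, had 20.6 to 57.4 CPM (median 40.9) in aged uteri, against 19.3 to 59.3 CPM (median 37.9) in 8-week and 22.8 to 58.6 CPM (median 29.98) in 5-week uteri. The values were 25.8 and 20.6 CPM in the 2 aged libraries of the earlier set and 39.2 to 57.4 CPM in the 4 of the later set, and the 8-week libraries split likewise, at 19.3 and 21.3 against 27.9 to 59.3 CPM. Of the 5 later 5-week libraries 1, at 23.2 CPM, lay between the 2 earlier ones. Pttg1 differed by 0.18 ± 0.21 (SE, adjusted p = 0.584) against 8-week and 0.26 ± 0.21 (SE, adjusted p = 0.382) against 5-week uteri, both short of the threshold.

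The chromosomal passenger complex corrects faulty attachments and steers cytokinesis. Its 3 members grouped here fell in both comparisons, with medians of -2.61 and -3.02 against 8-week and 5-week uteri. Birc5 (chromosome 11, 117849251 to 117855743, plus strand), which encodes survivin, had 1.09 to 17.6 CPM (median 5.73) in aged uteri, against 25.8 to 113 CPM (median 52.4) in 8-week and 22.4 to 153 CPM (median 96.3) in 5-week uteri. It changed by -3.01 ± 0.42 (SE, adjusted p = 0.000207) against 8-week and -3.60 ± 0.42 (SE, adjusted p = 1.5e-05) against 5-week uteri, with no overlap between aged and younger libraries. Cdca8, the borealin subunit, changed by -2.61 and -3.02, also without overlap. Incenp, the scaffold that activates Aurora B, had 10.3 to 44.1 CPM (median 15.3) in aged uteri, against 14.1 to 191 CPM (median 43.8) in 8-week and 15.4 to 172 CPM (median 39.99) in 5-week uteri, and 4 of 6 aged libraries overlapped the younger range. Its change of -1.58 ± 0.35 (SE, adjusted p = 0.00477) against 8-week uteri was -2.48 in the earlier libraries and -1.16 in the later ones. Incenp lost its call against 8-week uteri in the later set alone (adjusted p = 0.178), with no set term (0.116) and with columns attached by file (0.0922). Against 5-week uteri it lost the call in the later set alone (adjusted p = 0.0898) and with no set term (0.0875).

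All 9 kinetochore and centromere genes fell in both comparisons, by -1.99 (Cenpk) to -2.71 (Cenpe) against 8-week uteri and with medians of -2.53 and -2.997 against 8-week and 5-week uteri. Spc24 (chromosome 9, 21755442 to 21760303, minus strand), a subunit of the Ndc80 complex that grips microtubules, had the highest level per length, 11.8 CPM per kb. It had 1.72 to 15.9 CPM (median 3.91) in aged uteri, against 13.4 to 94.96 CPM (median 26.4) in 8-week and 16.3 to 87.1 CPM (median 43.3) in 5-week uteri, with a log2 fold change of -2.63 ± 0.31 (SE, adjusted p = 0.000117) against 8-week and -2.997 ± 0.31 (SE, adjusted p = 6.95e-06) against 5-week uteri. Aged replicate 2, with 15.9 CPM, was the aged library that reached the younger ones. Its partners Ndc80, Nuf2 and Spc25 changed by -2.53, -2.63 and -2.32 against 8-week uteri. Cenpa, the histone H3 variant that marks centromeres, averaged 9.87 ± 5.65 CPM in aged uteri, against 52.1 ± 28.7 CPM in 8-week and 93.1 ± 53.7 CPM in 5-week uteri, and changed by -2.36 and -3.10. Cenpe, a kinetochore motor, Cenpf, a large kinetochore protein, and Cenpm, of the inner kinetochore, changed by -2.71, -2.61 and -2.20 against 8-week uteri.

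The 8 kinesins, motors that build and shape the spindle, fell in both comparisons, with medians of -2.40 and -2.93 against 8-week and 5-week uteri. Kif22 (chromosome 7, 127027729 to 127042471, minus strand), which pushes chromosome arms outward, had 3.29 to 19.5 CPM (median 6.08) in aged uteri, against 22.5 to 95.6 CPM (median 36.8) in 8-week and 16.2 to 111 CPM (median 61.4) in 5-week uteri. Its log2 fold change was -2.32 ± 0.34 (SE, adjusted p = 0.000219) against 8-week and -2.80 ± 0.34 (SE, adjusted p = 1.73e-05) against 5-week uteri, and aged replicate 2 was the aged library above the lowest younger one. Kif11, the motor that separates spindle poles, changed by -2.94, Kif4 by -2.84, Kif23 by -2.58, Kif2c, a microtubule depolymerase, by -2.43, Kif15 by -2.37 and Kif20a, a motor of cytokinesis, by -2.11 against 8-week uteri. Of the exon length of Kif20a 29.3% overlaps Cdc23 on the other strand. Kif18a, which dampens chromosome movement, had the lowest level per length of the 53 genes, 0.981 CPM per kb, with 0.929 to 8.76 CPM (median 2.59) in aged uteri, against 4.66 to 23.8 CPM (median 8.95) in 8-week and 5.07 to 28.9 CPM (median 12.9) in 5-week uteri. It changed by -1.43 ± 0.30 (SE, adjusted p = 0.00357) against 8-week and -1.86 ± 0.30 (SE, adjusted p = 0.000334) against 5-week uteri. In the later set alone its adjusted p against 8-week uteri was 0.0811 and in the earlier set alone 0.0639.

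The 4 spindle-associated proteins fell with medians of -2.64 against 8-week and -3.42 against 5-week uteri. Nusap1 (chromosome 2, 119618298 to 119651244, plus strand), which bundles microtubules near chromatin, had 1.94 to 30.5 CPM (median 5.87) in aged uteri, against 20.6 to 126 CPM (median 51.2) in 8-week and 19.5 to 183 CPM (median 90.8) in 5-week uteri. It changed by -2.73 ± 0.44 (SE, adjusted p = 0.000561) against 8-week and -3.35 ± 0.44 (SE, adjusted p = 4.14e-05) against 5-week uteri. Hmmr, a spindle protein that is also a hyaluronan receptor, changed by -2.72 and -3.72, Aspm, of the spindle poles, by -2.29 and -3.03, and Ckap2 by -2.56 and -3.48 against 8-week and 5-week uteri. Hmmr and Ckap2 also had the lowest values in 8-week over 5-week uteri among the 53 genes, -0.99 and -0.93, neither past the threshold. The 4 midzone and cytokinesis genes fell with medians of -2.68 and -3.34. Prc1 (chromosome 7, 80294450 to 80316259, plus strand), which crosslinks the antiparallel microtubules of the midzone, had 4.30 to 40.2 CPM (median 8.74) in aged uteri, against 25.3 to 230.3 CPM (median 85.6) in 8-week and 40.6 to 349 CPM (median 142) in 5-week uteri. Prc1 changed by -2.80 ± 0.40 (SE, adjusted p = 0.00021) against 8-week and -3.40 ± 0.40 (SE, adjusted p = 1.59e-05) against 5-week uteri. Anln, a scaffold of the furrow, Ect2, which acts in cytokinesis, and Racgap1, of centralspindlin, changed by -2.68, -2.68 and -2.60 against 8-week uteri.

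All 5 genes of condensin, the ring that compacts mitotic chromosomes, fell in both comparisons, with medians of -1.65 and -2.05 against 8-week and 5-week uteri. Smc4 (chromosome 3, 69004738 to 69034623, plus strand), one of its ATPase arms, had 16.6 to 83.7 CPM (median 40.8) in aged uteri, against 58.1 to 233 CPM (median 97.97) in 8-week and 63.5 to 259.6 CPM (median 176) in 5-week uteri. Its log2 fold change was -1.46 ± 0.28 (SE, adjusted p = 0.00171) against 8-week and -1.87 ± 0.28 (SE, adjusted p = 0.000137) against 5-week uteri, and in the later set alone the adjusted p against 8-week uteri was 0.0603. Smc2, the other arm, changed by -1.65, Ncapd2 by -1.51, Ncaph, the kleisin that closes the ring, by -2.18 and Ncapg by -3.001 against 8-week uteri. Smc2 and Smc4 serve both condensins, whereas Ncapd2, Ncapg and Ncaph belong to condensin I. The plot of changes by gene shows Pttg1, Bub3, Bub1b, Kif18a and Smc4 farthest to the right in aged over 8-week uteri.

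**Figure D3:**
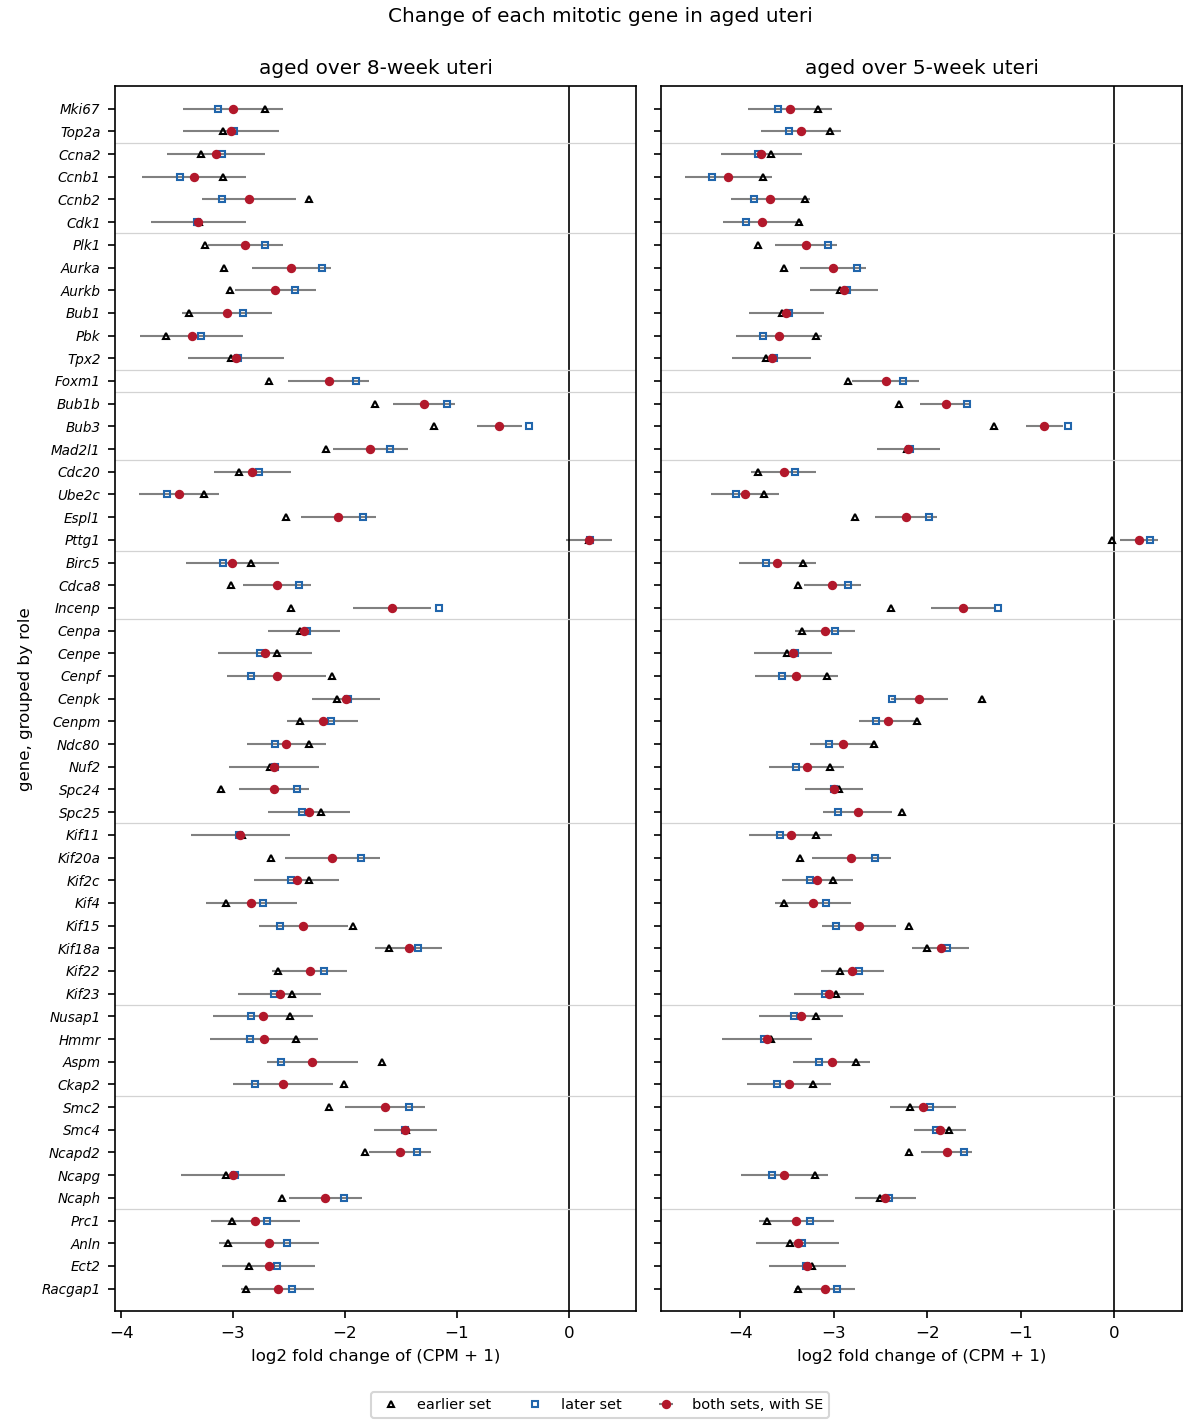
Log2 fold change of (CPM + 1) of each of the 53 genes in aged over 8-week uteri (left) and aged over 5-week uteri (right), with standard errors. Red points are the fit over both sets, triangles the value in the earlier set and squares that in the later one. All genes but Pttg1 lie left of 0 in both panels and in both sets.

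Within assemblies, partners differed in the size of their change. For 6 assemblies the difference of each subunit's log2(CPM + 1) from the mean of its partners was compared between ages within sets and averaged over the sets. The weight of a set was the product of the library numbers of the compared ages divided by their sum. The assemblies were chosen after the values were seen, so these differences are a description with no test. The difference of Bub3 from its checkpoint partners was higher in aged than in 8-week and 5-week uteri by 1.42 and 1.76, with an SD of 0.533 between libraries of the same age and set. For Bub1 the differences were -1.83 and -1.92 (SD 0.436). For Incenp, among the passenger proteins, they were 1.17 and 1.56 (SD 0.739), and for Pttg1 relative to Espl1 2.24 and 2.48 (SD 0.915). In condensin I, Ncapg differed from its partners by -1.31 and -1.49 (SD 0.551) and Smc4 by 0.62 and 0.58 (SD 0.268). The 4 Ndc80 subunits lay between -0.41 and 0.32, and Kif23 differed from Racgap1, its partner in centralspindlin, by 0.02 and 0.04.

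The sizes of these differences depended on the value added to CPM. With 5 CPM added in place of 1, those of Ncapg were -0.59 and -0.74, those of Bub1 -0.94 and -0.996, those of Smc4 0.31 and 0.26 and those of Incenp 0.74 and 1.10. For Bub3 they were then 1.01 and 1.31 and for Pttg1 1.58 and 1.79. Over 25 alternatives, among them the later set alone, columns attached by file and each library left out, Bub3, Incenp, Pttg1 and Smc4 kept a positive and Bub1 and Ncapg a negative difference in both comparisons.

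**Figure D4:**
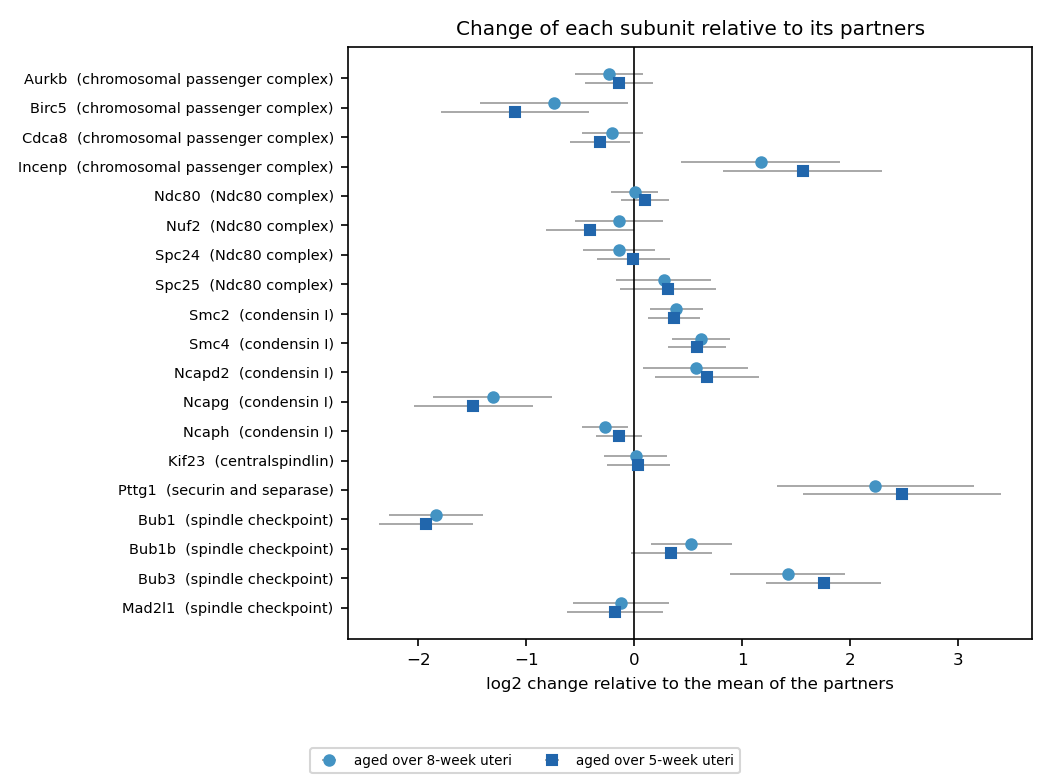
For each subunit of 6 assemblies, the log2 change in aged over 8-week uteri (circles) and over 5-week uteri (squares) relative to the mean change of its partners. Bars are the SD between libraries of the same age and set. Bub3, Incenp and Pttg1 lie at the right, Bub1 and Ncapg at the left, and the Ndc80 subunits and Kif23 near 0.

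Between 8-week and 5-week uteri none of the 53 genes was called (limma), and the background share was 0% of 12791 genes. At an unadjusted p under 0.05 there were 4 of the 53 genes and 139 of all genes. The median log2 fold change in 8-week over 5-week uteri was -0.47, with a median standard error of 0.357 per gene, and 52 of 53 values were negative. The groups overlapped for all 53 genes, beside 0.00782% of all genes higher and 0% lower without overlap. The sums of the 2 groups spanned 1256 to 7281 CPM at 8 weeks and 1360.4 to 8513 CPM at 5 weeks.

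The falls were present within both sets, as the headers name them. Against 8-week uteri the median was -2.60 in the earlier set and -2.58 in the later one, and against 5-week uteri -3.17 and -3.08. All 53 genes but Pttg1 had negative values in both sets in both comparisons. The difference in the age effect between the sets was called for none of the 53 genes (limma, lowest adjusted p 0.335), beside 0.0235% of all genes against 8-week and 0% against 5-week uteri. At an unadjusted p under 0.05 there were 1 and 0 of the 53 genes, beside 1855 and 1079 of all 12791 genes. For the 53 genes the differences between sets ran from -0.89 to 1.31 on the log2 scale against 8-week and from -0.96 to 1.14 against 5-week uteri, with a median standard error of 0.848. Without aged replicate 2 the median was -2.78 against 8-week and -3.30 against 5-week uteri.

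Within groups the genes varied together. After removal of group and set means, the median correlation over 1378 pairs of the 53 genes was 0.863 (-0.767 to 0.989) across 20 libraries, a description over libraries that share depth and scaling. By another measure, r with the mean of the 53, all other genes had a median of 0.005, in which positive and negative values can cancel. Bub1, Kif23 and Prc1 followed the mean of the other members most closely, with r of 0.996, 0.989 and 0.985. Pttg1 (-0.336), Incenp (0.390) and Bub3 (0.551) followed it least. The sum over the 53 genes varied 4.81-fold among aged, 5.80-fold among 8-week and 6.26-fold among 5-week uteri.

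Other genes of mitosis were taken from 7 lists, of 167 genes named and 156 listed. In aged against 8-week uteri 69 were lower and 1 higher, with a median of -0.45, and against 5-week uteri 76 were lower and 1 higher, with a median of -0.50. These counts and those of each list stand beside the 8.53% and 9.41% of all genes called lower in the 2 comparisons. Between 8-week and 5-week uteri 0 were called. Among other condensin and cytokinesis genes 13 of 18 fell against 8-week uteri, led by Cdca3, a trigger of mitotic entry (-3.005), Cep55, the midbody protein of abscission (-2.82), and Shcbp1 (-2.61). Of the other kinetochore and checkpoint genes 19 of 30 fell, among them Knl1, the kinetochore platform of Bub3 (-2.39), and Zwilch (-2.23). Other spindle and centrosome genes fell in 17 of 37 cases, led by Cep55, Ckap2l (-2.56) and Spag5 (-2.47). Numa1, which anchors microtubules at spindle poles, was the 1 gene that rose. It averaged 240.5 ± 107 CPM in aged uteri, against 127 ± 59.3 CPM in 8-week uteri, a log2 fold change of 0.85 (adjusted p = 0.0218). Of 25 other kinases, phosphatases and Cdk1 regulators 9 fell, led by Melk (-2.66), Nek2, a centrosome kinase (-2.47), and Ccnf (-2.33).

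Of 15 cohesin genes 4 fell against 8-week uteri (26.7%), with Cdca5, the sororin that protects cohesion (-2.18), Sgo2a, a shugoshin (-2.04), and Haspin, a histone kinase (-1.61), the largest changes. Of 18 core subunits and regulators of the anaphase-promoting complex 2 fell against 8-week uteri (11.1%), a share near the 8.53% of all genes, and 4 against 5-week uteri (22.2%, beside 9.41%). The 2 were Fbxo5, its inhibitor Emi1 (-1.33), and Ube2s, its chain-extending enzyme (-0.86). In the family of MuvB, DREAM and Rb genes 8 of 16 fell, led by the repressor E2f8 (-2.60), Mybl2, the B-Myb of late-cycle transcription (-1.71), and E2f1 (-1.66). In the list of DNA replication and S phase 31 of 37 genes fell against 8-week uteri, with a median of -1.49, and 30 against 5-week uteri, with a median of -1.34. The summed RNA of the 53 mitotic genes was 0.441 to 1.06 times that of the S phase list in aged uteri (median 0.779), against 0.901 to 2.01 times in 8-week (median 1.34) and 1.14 to 3.48 times in 5-week uteri (median 1.87), and this ratio was not tested. Of 12 G1 cyclins and Cdk inhibitors 2 fell and 2 rose against 8-week uteri (16.7% each, beside 8.53% and 8.64% of all genes).

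Markers of cell types and of hormone action were set beside these falls. Of 18 estrogen-responsive genes 5 were lower (27.8%, beside 8.53% of all genes) and 1 higher (5.6%, beside 8.64%) in aged than in 8-week uteri. The median log2 fold change of the 18 was -0.31. Against 5-week uteri 5 were lower (27.8%, beside 9.41%) and 1 higher (5.6%, beside 12.7%), with a median of -0.17. Their sums were 5699.7 to 33196 CPM in aged uteri, against 4689 to 23814 CPM in 8-week and 2536 to 21288 CPM in 5-week uteri. Of 19 luminal and general epithelial markers 0 were lower and 2 higher against 8-week uteri, with sums of 3173 to 9309 CPM in aged and 2852 to 13505 CPM in 8-week uteri. Of these 19 markers 1 was lower (5.3%, beside 9.41% of all genes) and 2 were higher (10.5%, beside 12.7%) against 5-week uteri. Against 8-week uteri, stromal (1 lower and 1 higher of 17), smooth muscle (0 and 1 of 18), endothelial (0 and 1 of 18), macrophage and dendritic (0 and 2 of 19) and T and NK cell markers (0 and 0 of 10) gave few calls, beside the 8.53% of all genes called lower and 8.64% called higher. Against 5-week uteri the counts were 1 and 2 for stromal, 0 and 3 for smooth muscle and 0 and 3 for endothelial markers. Macrophage and dendritic markers had 0 lower and 5 higher (26.3%), and T and NK cell markers 0 and 1. Of all genes 9.41% were called lower and 12.7% higher in that comparison. B cell and plasma cell markers were higher in 4 of 8 cases against 8-week and 5 of 8 against 5-week uteri. Their sums were 1017 to 7602 CPM in aged, against 590.3 to 964 CPM in 8-week and 456 to 879.5 CPM in 5-week uteri. Red blood cell genes were higher in 4 of 4 cases against 8-week and 0 of 4 against 5-week uteri. Their sums were 51.8 to 281 CPM in aged, against 16.1 to 63.1 CPM in 8-week and 29.1 to 156 CPM in 5-week uteri. What part these shifts have in the falls of the mitotic genes was not tested.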

How the data were processed

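RNA of uterine slices was analysed in 20 libraries: 6 aged, 7 of 8 weeks and 7 of 5 weeks. The authors deposited 1 table of CPM per sample, counts scaled to 1000000 over the listed genes, with 1 of 21 files holding no values, so aged replicate 3 has no column and was not analysed here. Tools in the submitters' processing notes are edgeR, featureCounts, STAR and fastp, with the build GRCm38 and no versions or roles. Per the labels' protocols the NEBNext Ultra kit was used with single or paired reads, with no assignment to libraries. Depth was recomputed from the spacing of the CPM values in each library.

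Values were tested as log2(CPM + 1) with limma 3.58.1 in R 4.3.3 (empirical Bayes with trend, age group and set as terms, all libraries in 1 fit), with Benjamini-Hochberg adjustment over 12791 genes and a threshold of 0.05, and within sets by contrasts of group and set means. The fit was checked on simulated data. Coordinates and exon lengths are from GENCODE release M21, where 12767 of 12791 gene identifiers were found, and promoter windows from RefSeq (GRCm38.p6). The 54 genes, the other lists and the tests were chosen with earlier results of these data known, so no list is independent evidence of its direction. Named with full values were the gene of each role with the highest CPM per kb, the 5 largest and the 5 smallest changes in aged against 8-week uteri, and each gene not called. From each other list of mitotic genes the 3 largest called changes and any call in the other direction were named, except 1 gene that is not reported here. Alternatives were pseudocounts of 0.5 and 5, quantile, median and TMM scaling, a filter at a mean CPM of 5, no trend, no set term, each set alone, a replicate block, columns attached by file and each library left out. Figures were drawn with matplotlib 3.10.9.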

Additional observations from a re-analysis of the deposited data

Results flagged for a closer look

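A pair of libraries stood apart from the other libraries of their group, by a gap to the nearest one that was large beside the range of the group (Dixon's 95% critical value). Of 57 groups of values tested this way 13 passed, where chance gives about 1 in 20 for libraries of 1 kind. That rate does not hold here: the groups of values are not independent, since the genes vary together, and each age group holds 2 libraries of the earlier set, in which most of these genes were higher (47 of the 53 were called lower in the later set, with a median of -1.46). By their headers both libraries belong to the earlier set, and its part in the gaps was not tested. Attached by file, aged replicate 2 would be of the later set. Aged replicate 2, of 60 to 75 weeks, was high in 8 of them. Its summed CPM of the 53 genes was 1588, with the next aged library at 783. It had 135 CPM of Top2a (next 53.3), 26.6 of Pbk (5.51), 20.7 of Foxm1 (4.77), 31.4 of Ube2c (10.3), 15.9 of Spc24 (4.42), 38.2 of Bub1b (21.4) and 8.76 of Kif18a (3.84). The other aged library of the earlier set, replicate 1, had a sum of 519.8 CPM. Library 8w replicate 1, also of the earlier set, was high in the other 5. It had 190.3 CPM of Pbk (next 83.5), 257 of Ube2c (129), 126 of Nusap1 (63.4), 245 of Cdk1 (119.6) and 23.8 of Kif18a (12.5). Without aged replicate 2 the median log2 fold change of the 53 genes was -2.78 in aged against 8-week uteri.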

How the results depend on the processing

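The count of the 53 genes called in aged against 8-week uteri was 43 in the later set alone, 45 with columns attached by file, 47 with no set term, 49 in the earlier set alone and 51 to 52 in the other alternatives, and against 5-week uteri 50 to 52. Leaving out 1 library gave 51 to 52 and 52 genes, medians of -2.81 to -2.40 and -3.30 to -2.98, and 58 to 78 and 64 to 81 of the other mitotic genes. No alternative called a gene of either kind between 8-week and 5-week uteri. Of the other mitotic genes, 70 called against 8-week and 77 against 5-week uteri, those against 8-week uteri were 32 in the later set alone and 36 with columns attached by file. Against 5-week uteri they were 50 with no set term and 48 in the later set alone. The earlier set alone gave 80 against 8-week and 63 against 5-week uteri. The cause of these differences was not tested. Pttg1 in aged against 5-week uteri turned to -0.023 in the earlier set alone. With only 150 bases before the start, 36.0% of member windows held TTTGAA, 38.0% either CHR form and 32.0% CHR and CCAAT, a window that leaves out the bases after the start and those farthest upstream. Genes that lost the call against 8-week uteri in the later set alone were Kif20a, Incenp, Kif18a, Smc2, Mad2l1, Smc4, Ncapd2, Bub1b and Bub3. Against 5-week uteri Incenp and Bub3 lost it there, Incenp with no set term and Bub3 with columns attached by file. In the earlier set alone Cenpf, Kif18a and Aspm lost it against 8-week and Cenpk against 5-week uteri. With columns attached by file the 7 genes lost against 8-week uteri were Incenp, Kif18a, Smc2, Kif15, Ncapd2, Bub1b and Bub3, and with no set term the 5 were Foxm1, Incenp, Ncapd2, Bub1b and Bub3. Of 19 pairs of same-numbered libraries, 10 had a correlation of deviations over 0.1 (-0.505 to 0.279), and 5 of 20 libraries correlated best with their own number. In the earlier set, with 2 libraries a group, replicates 1 and 2 give the same r by construction (-0.153, 0.269 and 0.104). These counts therefore cannot settle whether the libraries pair. A replicate block gave 51, 52 and 0 of the 53 genes in aged against 8-week, aged against 5-week and 8-week against 5-week uteri. Among other mitotic genes it gave 65, 69 and 0. Of the 53 genes Bub3 alone lost a call under the block. Count tests on recomputed reads, edgeR's quasi-likelihood test and DESeq2, were planned and not run. Depth limits the scarcest of these genes, whose lowest value in any library was 11 reads.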
